A study of Homo sapiens with 4 samples.

Results

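The granins, neuropeptide Y and the enzymes that process prohormones were examined as a group of 10 genes in SH-SY5Y, an established human neuroblastoma cell line that keeps features of sympathetic neurons. The genes were CHGA, CHGB, SCG2, SCG3, SCG5, VGF, NPY, PCSK1, PCSK2 and CPE, and every probe set whose annotation gave 1 of these symbols and no other was kept. This gave 9 of the 54675 probe sets on the array, from 8 of the 19775 genes that have a probe set of their own. No probe set was assigned to PCSK1 or PCSK2 by this rule, and these 2 genes were not analysed here. The study compared cells transfected with an siRNA against LSD1 with cells transfected with a control siRNA, and 2 arrays were hybridized for each, called siLSD1 and siControl. Per the submitters' design text, each group comprises 2 independent transfections. All arrays came from the same parental line, so the spread between arrays covers transfections of 1 line and not different cell lines, and no source used here gives the time after transfection.

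Neuroendocrine cells and sympathetic neurons store peptides in large dense-core vesicles. Granins are acidic proteins that condense in the trans-Golgi network and help form the core of these vesicles. The peptide precursors packed with them are cut at pairs of basic residues by the convertases encoded by PCSK1 and PCSK2, and the carboxypeptidase encoded by CPE then trims the exposed basic residues. Many genes of this group are repressed outside neurons by REST, a zinc finger protein that recruits the CoREST corepressor together with LSD1 (encoded by KDM1A). Several are also induced through cyclic AMP response elements, the binding sites of CREB.

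Promoter sequences from RefSeq (GRCh38.p14) were found for 8 of the 10 genes, 6 of them with a probe set here. The palindromic cyclic AMP response element TGACGTCA was searched in the window from 250 bases before to 50 bases after the start. It occurred in CHGA, in VGF and in 1 of the 2 promoters of PCSK1, that is in 3 of the 8 genes. Of all 35116 promoters of this length 1.85% held it, a share by promoter and not by gene. The element began at position -54 in CHGA and at position -79 in VGF, counted back from the transcription start. The core TGACG, searched on both strands and contained in the palindrome, was found in 24.6% of all promoters. CPE held 2 such cores, at positions -221 and -120, and of the other measured genes SCG3 and SCG5 held 1 each and NPY none. At least 2 cores lay in the 250 bases before the start in 4.76% of all promoters, where a palindrome counts as 2. The 250 bases before the start are shown for CHGA and VGF, the measured genes with the whole element, and for CPE, which has separate cores. Capitals mark the element or core. CHGA lies on the plus strand (chr14:92922900-92923149), VGF on the minus strand (chr7:101165570-101165819) and CPE on the plus strand (chr4:165378758-165379007).
CHGA: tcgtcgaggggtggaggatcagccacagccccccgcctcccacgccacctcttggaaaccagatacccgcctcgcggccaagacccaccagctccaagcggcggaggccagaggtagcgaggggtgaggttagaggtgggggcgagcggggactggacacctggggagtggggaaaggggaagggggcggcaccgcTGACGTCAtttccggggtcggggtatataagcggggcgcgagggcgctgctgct
VGF: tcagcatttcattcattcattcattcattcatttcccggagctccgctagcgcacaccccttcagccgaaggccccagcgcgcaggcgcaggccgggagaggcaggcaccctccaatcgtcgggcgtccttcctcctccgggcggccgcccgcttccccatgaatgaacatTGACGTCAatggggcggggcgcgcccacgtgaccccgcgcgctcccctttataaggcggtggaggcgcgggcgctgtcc
CPE: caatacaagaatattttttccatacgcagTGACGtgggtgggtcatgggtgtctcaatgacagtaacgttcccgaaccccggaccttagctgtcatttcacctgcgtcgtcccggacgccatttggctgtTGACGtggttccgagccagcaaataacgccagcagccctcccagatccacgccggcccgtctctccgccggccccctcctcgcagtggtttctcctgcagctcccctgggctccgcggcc

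SCG3 is shown for another reason. After the promoters had been read, the letters TCAGCACC and GGACAG, the left and right parts of the REST recognition motif, were searched on both strands. In SCG3 they lay just after the start, at positions 10 and 26, on the same strand and with 8 bases between them. The left part was present in 1.67% of all promoters of the same window, the right part in 20.5% and both in 0.51%. The last share counts the parts at any distance, in any order and on either strand, so it is not the share of the SCG3 arrangement. The spacing of 8 bases was not compared with that of the whole motif, which was not searched. Of the other measured genes, VGF held the right part alone, and CHGA, SCG5, NPY and CPE held neither. A match is a description of the sequence, and no binding was measured. The 30 bases are on the plus strand of chr15:51681510-51681539, with the matched letters in capitals.
SCG3: ctTCAGCACCcacagggcGGACAGcgctcc

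The KDM1A transcript was measured first, as the target of the siRNA. Its signal was 9.79 and 9.78 in siControl replicates 1 and 2, against 8.40 and 8.54 in the siLSD1 replicates. Levels are log2 signals after quantile normalization, which gives every array the same distribution, unless they are called deposited. Every fold change is siLSD1 relative to siControl. The group means were 9.79 ± 0.0062 and 8.47 ± 0.10 (SD, n = 2). KDM1A stood at 40.1% of its control level, with a log2 fold change of -1.32 and a 95% interval from -1.70 to -0.94. Limma's moderated test gave an unadjusted p of 6.24e-05, the smallest on the array, and an adjusted p of 0.986 over the 32768 probe sets tested. That adjusted p was 0.394 when each gene was represented by its brightest probe set alone.

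None of the 9 probe sets passed the threshold, an adjusted p under 0.05 in limma, nor did any other probe set on the array (0 of 32768, 0%). With no adjustment, 630 probe sets of the whole array (1.92%) were higher and 500 (1.53%) lower at a limma p under 0.05, 3.45% together, against 0 of the 9 in either direction. All 9 were bright enough to be tested. Of the 9, 4 had a higher and 5 a lower mean after LSD1 siRNA. Their log2 fold changes had a median of -0.10 and ranged from -0.36 to 0.43. Over all probe sets tested the median was 0.0010, and 50.1% were higher. Under median centring, another scaling, which moved the median of all probe sets to 0.15, 6 of the 9 were higher and 3 lower. With that scaling 68.2% of all probe sets tested were higher. The median size of a difference, regardless of sign, was 0.11 for the 9 and 0.23 for all probe sets tested. The arrays measured RNA from whole cultures, in which fewer cells of a type and less RNA per cell cannot be told apart.

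**Figure D1:**
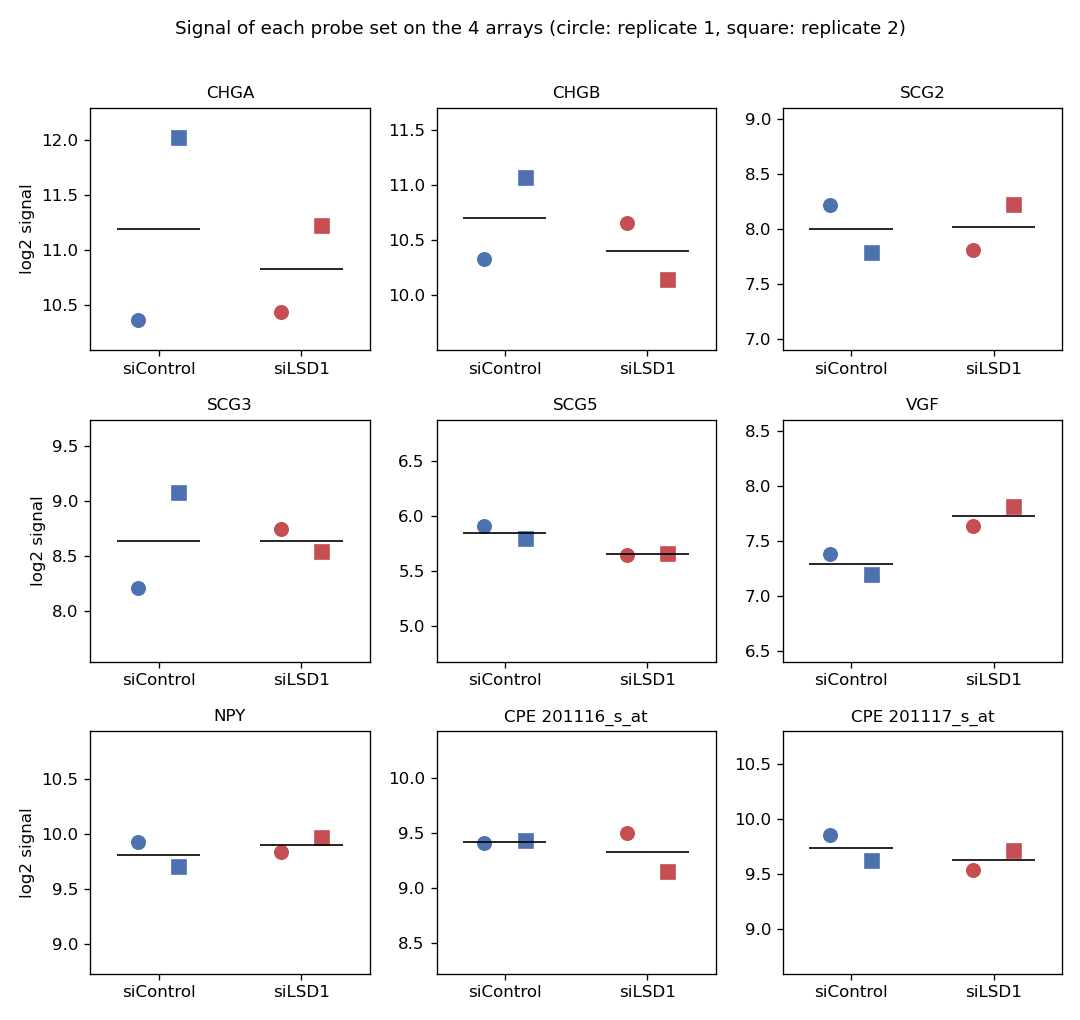
Log2 signal of the 9 probe sets on the 4 arrays, 1 panel each, with siControl in blue, siLSD1 in red, circles for replicate 1, squares for replicate 2 and lines for the group means. Every vertical axis spans the same number of log2 units, and the groups overlap in all panels but SCG5 and VGF.

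VGF, a granin-like precursor of several secreted peptides that is induced by nerve growth factor, had the largest difference of the group. Its signal was 7.38 and 7.19 in siControl replicates 1 and 2, against 7.64 and 7.81 in the siLSD1 replicates. Both siLSD1 values lay above both siControl values, as for 16.7% of all probe sets tested. The group means were 7.29 ± 0.13 and 7.72 ± 0.12 (SD, n = 2). The 1.35-fold difference had a log2 fold change of 0.43 and a 95% interval from -0.13 to 0.995, that is from 1.09-fold lower to 1.99-fold higher (limma, unadjusted p = 0.11, adjusted p = 0.986). The difference exceeded the gap of 0.19 between the control arrays and of 0.17 between the siLSD1 arrays. Leaving out 1 array at a time kept it between 0.34 and 0.53, and it was 0.65 under median centring (limma, unadjusted p = 0.0309, adjusted p = 0.815), a scaling under which 1385 probe sets were higher and 234 lower at an unadjusted p under 0.05. The VGF probe set is of the type marked x, some of whose probes also match other sequences, so its signal may not come from VGF alone.

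CHGA, which encodes chromogranin A, the granin used as a marker of neuroendocrine cells, was the most variable gene of the group. Its signal was 10.37 and 12.02 in siControl replicates 1 and 2, against 10.44 and 11.22 in the siLSD1 replicates. Both siLSD1 values thus fell between the control values, and the group means were 11.19 ± 1.17 and 10.83 ± 0.55 (SD, n = 2). The control arrays differed 3.14-fold from each other, a wider gap than for 96.2% of all probe sets tested, and the siLSD1 arrays differed 1.71-fold. The log2 fold change was -0.36, with a 95% interval from 2.84-fold lower to 1.71-fold higher (limma, adjusted p = 0.986). It was -1.19 without siControl replicate 1, 0.46 when siControl replicate 2 was left out and 0.022 when siLSD1 replicate 1 was. The sign of the CHGA difference therefore depended on which arrays of either group were used.

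CHGB encodes chromogranin B, a second granin of the vesicle core. Its signal was 10.33 and 11.07 in siControl replicates 1 and 2, against 10.66 and 10.14 in the siLSD1 replicates. The groups overlapped, and siControl replicate 2 was again the highest array. The log2 fold change was -0.30, with a 95% interval from 1.87-fold lower to 1.23-fold higher (limma, adjusted p = 0.986). It was -0.67 without siControl replicate 1 and 0.071 without siControl replicate 2.

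SCG3, which tethers chromogranin A to the vesicle membrane, shared this difference between the control arrays. Its signal was 8.21 and 9.07 in siControl replicates 1 and 2, against 8.75 and 8.54 in the siLSD1 replicates, with group means of 8.64 ± 0.61 and 8.64 ± 0.15 (SD, n = 2). The siLSD1 values lay between the control values. The means agreed to a log2 fold change of 0.00084, but the 95% interval ran from 1.61-fold lower to 1.61-fold higher. Without siControl replicate 1 the value was -0.43 and without siControl replicate 2 it was 0.43.

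SCG2, the precursor of the peptide secretoneurin, had signals of 8.22 and 7.78 in siControl replicates 1 and 2, against 7.81 and 8.22 in the siLSD1 replicates. Each group held a high and a low array, and the log2 fold change of 0.014 had a 95% interval from -0.60 to 0.62. For SCG2 siControl replicate 1 was the higher control array, opposite to CHGA, CHGB and SCG3. The value was -0.20 when siControl replicate 2 was left out and -0.19 when siLSD1 replicate 2 was, and the highest value with 1 array left out was 0.23.

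SCG5 encodes a chaperone of the convertase made from PCSK2. Its signal was 5.91 and 5.79 in siControl replicates 1 and 2, against 5.65 and 5.66 in the siLSD1 replicates. Both siLSD1 values were below both control values, as for 16% of all probe sets tested. The log2 fold change was -0.20, with a 95% interval from 1.83-fold lower to 1.39-fold higher (limma, unadjusted p = 0.516, adjusted p = 0.986). The siLSD1 arrays differed by 0.014, a smaller gap than for all but 3.23% of probe sets tested. The interval was nevertheless wide, because limma draws a gene's spread towards that of other probe sets of like brightness. The value was -0.021 under median centring, beside that median of 0.15 over all probe sets. The 2 probe sets whose groups did not overlap, VGF and SCG5, made up 2 of 9, beside 32.7% of all probe sets tested.

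NPY, the peptide that sympathetic neurons release with noradrenaline, was the most tightly bounded gene of the group. Its signal was 9.93 and 9.70 in siControl replicates 1 and 2, against 9.84 and 9.97 in the siLSD1 replicates. The groups overlapped, and the means were 9.81 ± 0.16 and 9.90 ± 0.093 (SD, n = 2). The log2 fold change of 0.091 had a 95% interval from 1.18-fold lower to 1.34-fold higher (limma, unadjusted p = 0.544, adjusted p = 0.986). A fall or rise of NPY by 2-fold thus lay outside the interval, whereas for CHGA a 2-fold fall lay inside it. Without siControl replicate 2 the value was -0.024.

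CPE, the carboxypeptidase that trims basic residues from peptide ends, was measured by 2 probe sets. Both are of the type marked s, whose probes match more than 1 transcript, as are the probe sets of CHGA and KDM1A. The probe set 201116_s_at gave 9.41 and 9.43 in siControl replicates 1 and 2, against 9.50 and 9.15 in the siLSD1 replicates. The probe set 201117_s_at gave 9.86 and 9.62 in siControl replicates 1 and 2, against 9.54 and 9.71 in the siLSD1 replicates. Their log2 fold changes were -0.096 and -0.11, with 95% intervals from -0.50 to 0.31 and from -0.47 to 0.25. Both overlapped between the groups, and the arrays ranked differently on them: siLSD1 replicate 1 was the highest array on the first and the lowest on the second. Under median centring the values were 0.090 and 0.043, below the median of 0.15 that this scaling gave all probe sets. The probe sets share the gene and the RNA and are not replicates of each other.

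**Figure D2:**
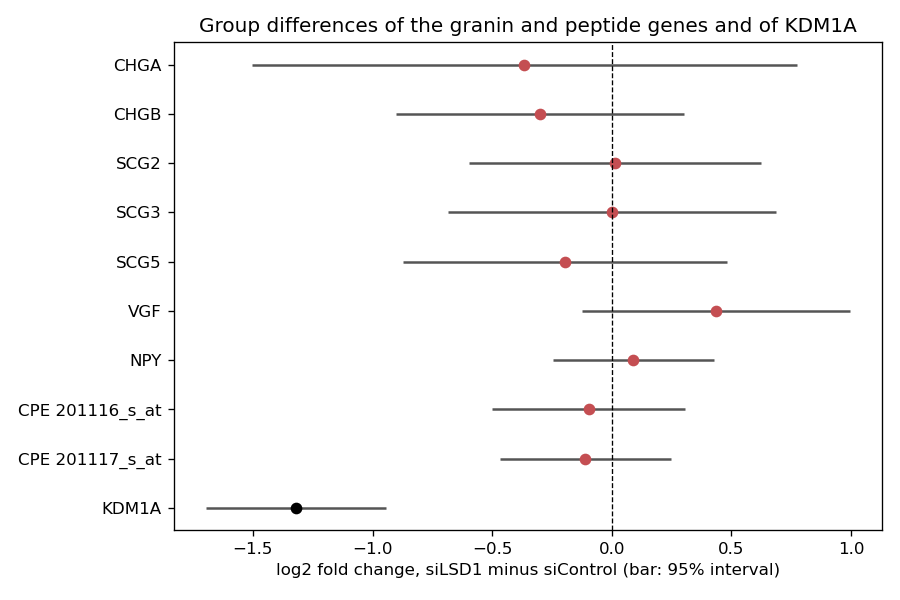
Log2 fold change (siLSD1 minus siControl) with the 95% interval from limma for the 9 probe sets and for KDM1A in black. Each of the 9 intervals spans 0, and the widest is that of CHGA (-1.50 to 0.77).

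The groups overlapped in 7 of the 9 probe sets, a share near that of the array, where they did not overlap for 32.7%. The gap between the control arrays exceeded the difference between group means for CHGA, CHGB, SCG2, SCG3, NPY and the CPE probe set 201117_s_at. The 3.14-fold, 1.67-fold and 1.81-fold control gaps of CHGA, CHGB and SCG3 all had siControl replicate 2 on the higher side, and siControl replicate 1 was the higher control array for SCG2, SCG5, VGF, NPY and 201117_s_at, while the control arrays differed by 0.024 on 201116_s_at. The median control gap was 0.24 for the 9 probe sets and 0.35 for all probe sets tested. The large gaps were thus those of CHGA, CHGB and SCG3 and not of the group as a whole.

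**Figure D3:**
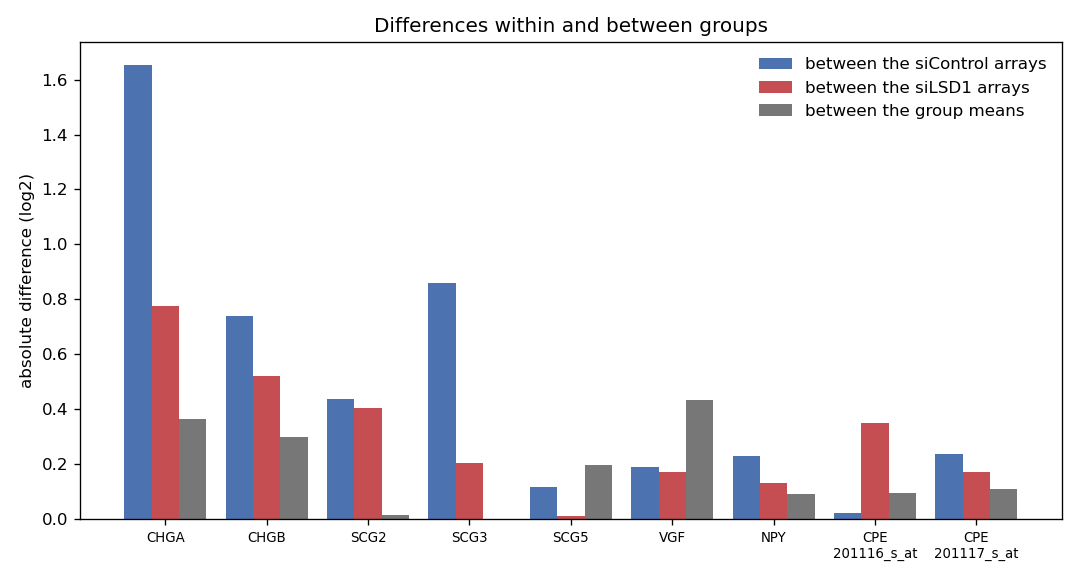
Absolute log2 difference between the siControl arrays (blue), between the siLSD1 arrays (red) and between the group means (grey) for each of the 9 probe sets. The tallest bar is the CHGA control gap of 1.65, and the group difference is the tallest bar only for SCG5 and VGF.

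The arrays themselves differed in ways that bear on these values. The correlation of each array with the mean of the others ran from 0.954 for siControl replicate 1 to 0.973. The deposited signal of an 18S ribosomal RNA control probe set was 10.45 on siLSD1 replicate 2 and between 5.21 and 6.02 on the others. The deposited signals of the actin controls near the 3' and 5' ends of the transcript differed by 1.16 on that array and by 0.54 to 0.71 elsewhere. Of the 6 noradrenergic markers with a probe set, PHOX2A, HAND2, GATA3, DBH and ISL1 were above the brightness filter and TH was not, with a summed level of 51.4 and 52.2 in siControl and 50.8 and 54.1 in siLSD1 cells. Without TH the sums were 51.1 and 51.5 against 51.7 and 50.9, so that siLSD1 replicate 2 went from the highest array to the lowest. None of the 4 glial markers with a probe set was above the filter (summed levels of 7.57 and 8.07 against 7.21 and 7.71), while 2 of 5 blood markers (12.2 and 10.4 against 10.1 and 7.58), 1 of 5 endocrine markers (9.05 and 7.19 against 7.75 and 11.6) and 6 of 6 fibroblast markers (38.2 and 36.4 against 38.5 and 39.2) were. The markers above the filter alone summed to 7.86 and 6.12 against 8.44 and 9.23 for blood, the reverse of the order of the whole blood list, and the single endocrine marker gave 4.39 and 3.97 against 3.97 and 1.83. Of the 6 fibroblast markers, PDGFRB was 1.92-fold higher in siLSD1 cells (limma, unadjusted p = 0.033, adjusted p = 0.986). COL3A1 was 1.33-fold higher (limma, unadjusted p = 0.11, adjusted p = 0.986), and neither overlapped between the groups. Of all probe sets tested, 16.7% were higher without overlap and 3.45% had an unadjusted p under 0.05 in limma. The other 4 markers overlapped between the groups. COL1A1 (0.16) and LUM (0.23) had positive log2 fold changes, COL1A2 (-0.11) and DCN (-0.13) negative ones. The part of the array differences and of these markers in the values of the granins was not tested.

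A wider set of 56 genes for neuropeptides, their processing, NPY reception and the regulators of such genes was then set beside the group. A probe set was available for 51, and 32 were bright enough to be tested, each by its brightest probe set. None passed the threshold in limma. After LSD1 siRNA 21 (65.6%) had a higher and 11 a lower mean, and the median of their log2 fold changes was 0.10. Of all probe sets tested, 50.1% were higher. Both counts depended on the scaling: 17 were higher and 15 lower on the deposited values, and 26 and 6 under median centring. The share of all probe sets tested that were higher moved as well, to 46.7% on the deposited values and 68.2% under median centring.

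NPY2R, a presynaptic receptor for NPY, was the only gene of the wider set whose brightest probe set had an unadjusted p under 0.05 in limma, 1 of 32 beside 3.45% of all probe sets tested, so the count is near that of the array as a whole. Its brightest probe set gave 6.22 and 5.81 in siControl replicates 1 and 2, against 6.80 and 7.01 in the siLSD1 replicates. Both siLSD1 values were above both control values, and the log2 fold change of 0.89 had a 95% interval from 0.21 to 1.57 (limma, unadjusted p = 0.017, adjusted p = 0.986). With 1 array left out the value stayed between 0.69 and 1.09, but its sign could not change, because the groups did not overlap. A second probe set of NPY2R overlapped between the groups, with a log2 fold change of 0.19 and an interval from -0.83 to 1.21, and the third was below the filter. The probe sets of NPY1R, NPY5R and DPP4, a peptidase that cleaves NPY, were below the filter, and MME, the peptidase neprilysin, had a log2 fold change of -0.18.

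Among the other enzymes and vesicle proteins 12 of 17 tested genes were higher and 5 lower (9 and 8 on the deposited values). Of all probe sets tested, 50.1% were higher (46.7% on the deposited values). PAM, which amidates the ends of peptides such as NPY, had signals of 8.97 and 8.93 in siControl and 9.26 and 9.35 in siLSD1 cells. The values did not overlap, and the 95% interval of the log2 fold change of 0.36 ran from -0.015 to 0.73 (limma, unadjusted p = 0.0574, adjusted p = 0.986). The other PAM probe sets had values of 0.13 and -0.043. CPD, a second carboxypeptidase, had a log2 fold change of 0.10 by its brightest probe set. The other 3 probe sets tested had -0.24, -0.69 and -0.40, the last without overlap between the groups. Another CPD probe set, below the filter, had 0.89, with both siLSD1 values above both control values. DBH, the vesicle enzyme that makes noradrenaline, had -0.20, which ran from -0.38 to -0.019 with 1 array left out. A second DBH probe set, below the filter, had -1.55. PCSK1N, an inhibitor of the convertase from PCSK1, had 0.33, the convertases PCSK4, PCSK6 and PCSK7 had 0.37, 0.62 and 0.48, and FURIN had 0.068, none past the threshold.

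Among neuropeptide precursors 9 of 21 with a probe set were bright enough to be tested, 6 of them higher and 3 lower. On the deposited values 5 were higher and 4 lower. Of all probe sets tested, 50.1% were higher (46.7% on the deposited values). NMU, the precursor of neuromedin U, gave 9.98 and 9.96 in siControl replicates 1 and 2, against 9.81 and 9.80 in the siLSD1 replicates. The 1.12-fold lower mean did not overlap with the controls, and the interval of the log2 fold change ran from -0.46 to 0.12 (limma, unadjusted p = 0.211, adjusted p = 0.986). GAL, the galanin precursor, had a log2 fold change of -0.12 with overlapping groups, and NMB, the neuromedin B precursor, of 0.10. A second GAL probe set had 0.41, also with overlapping groups. REST, the repressor of neuronal genes, had a log2 fold change of 0.12, its cofactor RCOR1 of 0.26 and CREB1, which binds cyclic AMP response elements, of -0.17. The brightest REST probe set overlapped between the groups, with 7.33 and 6.61 in siControl and 6.91 and 7.27 in siLSD1 cells. The other REST probe sets, both below the filter, had 1.90 without overlap and -0.35 with overlap. A second RCOR1 probe set, also below the filter, had -1.25. CREB1 had 7 probe sets of differing sign, from -0.50 to 0.94, the last with an unadjusted p of 0.0326 in limma.

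**Figure D4:**
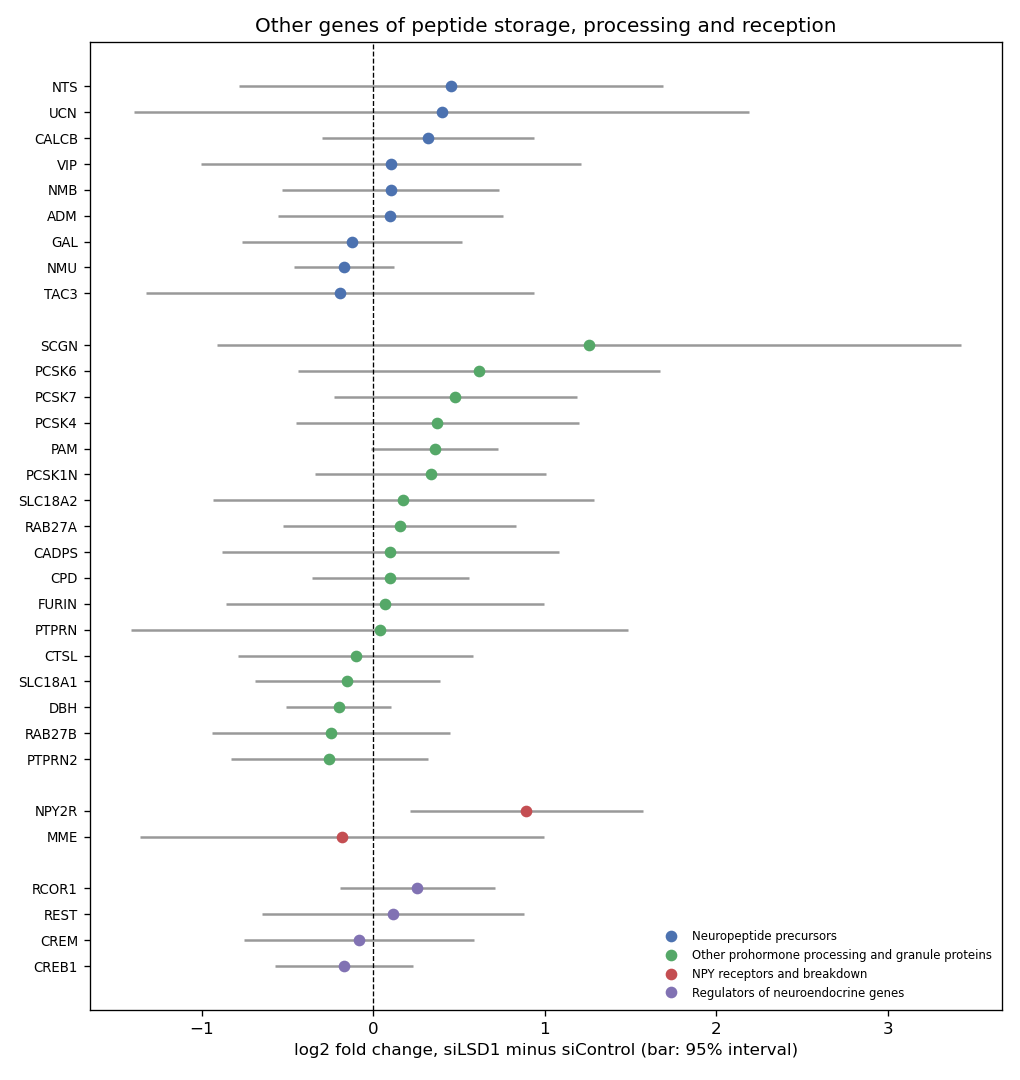
Log2 fold change (siLSD1 minus siControl) with the 95% interval from limma for the 32 tested genes of the wider set, 1 colour per list and ordered within each list. The NPY2R interval (0.21 to 1.57) is the 1 of 32 that does not span 0, beside 3.45% of all probe sets tested.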

How the data were processed

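Total RNA of 4 cultures was hybridized to Affymetrix arrays, per the labels' protocols. The deposited values are 1 log2 signal per probe set and array. The scale was read off the values: raised from base 2 and trimmed by 2% at either end, every array averaged 100.03. No source used here names the method by which the authors summarised probes. Groups and replicate numbers came from the sample titles.

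Probe sets were named through the platform annotation, where 41091 of 54613 probe sets other than controls had 1 symbol. Values were quantile normalized, because the deposited array medians ran from 4.00 to 4.27. A probe set entered the test if its mean over the 4 arrays reached the 40th percentile (3.26), which left 32768. The test was limma 3.58.1 under R 4.3.3 (lmFit, then eBayes with a variance trend, two-sided, Benjamini-Hochberg adjustment over all probe sets tested, threshold 0.05). The moderated test had 7.27 degrees of freedom. An exact permutation test of 2 against 2 arrays cannot go below p = 0.333, and so few arrays limit the precision. The 95% intervals had a median half-width of 0.78, or 1.72-fold. The fit was tested on simulated data of 32768 independent probe sets, of which 200 were changed. No deviation was shared by the probe sets of an array. The fit called 4.03% of the probe sets changed 2-fold, 26.3% of those changed 4-fold and 62% of those changed 8-fold. Of its calls 5.65% were false. These shares hold for that number of changed probe sets and may differ on the real arrays.

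The genes and lists were chosen with earlier results of these data known. Named were all members, the 3 brightest genes of each wider list and those with an unadjusted p under 0.05. PCSK1N, PCSK4, PCSK6, PCSK7, FURIN, NPY1R and DPP4 were named after their values were seen. Outside this rule, the noradrenergic and fibroblast markers with a probe set were all named. Alternatives were other scalings, filters and probe set rules, no variance trend, the replicate number as a block and leaving out each array. Same-numbered arrays deviated with a correlation of -0.042 over probe sets, and no label says that a number marks a shared day or names a batch.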

Additional observations from a re-analysis of the deposited data

How the results depend on the processing

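No alternative brought any of the 9 probe sets, or any gene of the wider set, past an adjusted p of 0.05. Over the whole array the count was 0 with each array left out except siControl replicate 2, where 1 probe set was called, that of RARS1, which is no member (range 0 to 1). At an unadjusted p under 0.05 that setting gave 2625 higher and 1121 lower probe sets. With 1 array left in a group, its spread is taken to be that of the other group. The replicate block, for which the arrays share only a number, also called 0 of the 9 and 0 over the array (842 higher and 576 lower at an unadjusted p under 0.05). Only under median centring did the median of the 9 move by more than the spread between replicates, to 0.090. Median centring raised all probe sets to a median of 0.15. The values of CPE (0.090 for 201116_s_at and 0.043 for 201117_s_at), CREB1 (0.0042) and GAL (0.10) passed 0 with it, as did the median of the 9, but each stayed below 0.15 and so did not turn relative to the array. The mean of all probe sets of a gene turned CPD (-0.067), GAL (0.14) and RCOR1 (-0.50). For RCOR1 the turn came from a probe set below the filter, with means of 1.54 in siControl and 0.29 in siLSD1. For GAL it came from a dim probe set, with means of 3.55 in siControl and 3.96 in siLSD1. With 1 array left out, the log2 fold change ran from -1.19 to 0.46 for CHGA, -0.67 to 0.071 for CHGB, -0.20 to 0.23 for SCG2, -0.43 to 0.43 for SCG3, -0.024 to 0.21 for NPY, and -0.27 to 0.080 and -0.23 to 0.0074 for the CPE probe sets 201116_s_at and 201117_s_at. In the wider set it ran from -0.024 to 0.22 for CPD, -0.36 to 0.010 for CREB1 and -0.46 to 0.21 for GAL. For NMB it ran from -0.063 to 0.27 and for REST from -0.24 to 0.48. Without a change of sign, it ran from -0.38 to -0.019 for DBH, -0.36 to -0.010 for MME and 0.081 to 0.43 for RCOR1. The RCOR1 groups did not overlap, so leaving out 1 array could not change its sign. VGF and SCG5 kept their direction under every alternative tried, as did KDM1A, whose value ran from -1.39 to -1.14. The groups did not overlap for these genes, so leaving out 1 array could not change the sign. The filters, variance trend, block and probe set rules leave the value of a gene with 1 probe set as it was. Only the other scalings could have turned these genes.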
